A study of Mus musculus with 2 samples.

Results

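The Kv4 channel complex was followed through 8 genes, chosen by symbol from the 32285 genes of the count matrices: the pore genes Kcnd2 and Kcnd3, the KChIP genes Kcnip1, Kcnip2, Kcnip3 and Kcnip4, and the DPP genes Dpp6 and Dpp10. Nuclear RNA was counted in 2 droplet libraries of mouse hippocampus, 1 labelled CAPZA2+/- (a heterozygous knockout) and 1 labelled wild type, each labelled rep1. Capza2 encodes an alpha subunit of the protein that caps actin filaments. The labels give neither the age or sex of the mice, nor the kind of knockout allele, nor how many mice were pooled in a library. Each genotype had 1 library, so the differences below have no replicate check and are between 2 libraries, not between genotypes. The values are unique molecular identifiers (UMIs), each counting 1 captured transcript, and levels are UMIs per 1000000 UMIs of the same class of nuclei (CPM).

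Kv4 channels carry the A-type potassium current that opens and inactivates quickly below the threshold of the action potential. In hippocampal pyramidal cells this current is known for limiting how far action potentials spread back into the dendrites. The pore-forming Kv4 subunits assemble with KChIPs, cytosolic calcium-binding proteins of the neuronal calcium sensor family that modulate inactivation and surface delivery. They also assemble with DPP6 or DPP10, single-pass membrane proteins related to dipeptidyl peptidases but without enzymatic activity, which speed gating. Which KChIP and which DPP protein a cell makes therefore sets much of the behaviour of its channel.

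The regions upstream of the start sites are shown for both pore genes, whose ratio differed between cell classes, and for Dpp10, which was high in some classes of neurons and near background in others. Each run is the 250 bases before a RefSeq start, build GRCm38.p6, on the gene's strand, 5′ to 3′, with GC boxes (GGGCGG or its reverse complement CCGCCC) in capitals.
Kcnd2, chr6:21215096-21215345, plus strand: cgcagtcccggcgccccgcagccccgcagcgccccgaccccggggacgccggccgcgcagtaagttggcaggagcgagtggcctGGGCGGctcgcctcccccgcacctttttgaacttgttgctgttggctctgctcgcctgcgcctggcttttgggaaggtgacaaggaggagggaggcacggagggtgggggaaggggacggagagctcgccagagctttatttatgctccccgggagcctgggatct
Kcnd3, chr3:105451640-105451889, plus strand: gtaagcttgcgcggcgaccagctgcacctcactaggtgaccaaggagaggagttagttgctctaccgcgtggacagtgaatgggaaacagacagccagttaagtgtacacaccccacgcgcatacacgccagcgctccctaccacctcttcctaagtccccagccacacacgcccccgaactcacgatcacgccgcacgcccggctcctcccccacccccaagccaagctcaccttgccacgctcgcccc
Dpp10, chr1:124045560-124045809, minus strand: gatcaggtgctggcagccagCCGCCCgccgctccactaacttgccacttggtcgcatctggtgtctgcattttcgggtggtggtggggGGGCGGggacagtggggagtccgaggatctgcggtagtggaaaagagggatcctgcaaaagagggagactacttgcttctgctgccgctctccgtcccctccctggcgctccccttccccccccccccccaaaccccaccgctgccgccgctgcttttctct
Kcnd2 held 1 GC box, Dpp10 held 2 and Kcnd3 held 0, and 32.7% of 32851 RefSeq windows of this length hold at least 1. The TATA motif TATAAA, searched on both strands, was in none of the 3 windows and is in 12.4% of all. The windows held 22 CG dinucleotides in Kcnd2, 18 in Kcnd3 and 14 in Dpp10, against a median of 6 over all windows. These matches describe the letters only.

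The 8 genes differ widely in length, from 24.2 to 1135 kb, which matters in nuclear RNA because most of it is unspliced. In GRCm38 coordinates of GENCODE M21, Kcnd2 (ENSMUSG00000060882, Kv4.2) spans chromosome 6 from 21215503 to 21729805 and Kcnd3 (ENSMUSG00000040896, Kv4.3) spans chromosome 3 from 105452330 to 105674002. Kcnip1 (ENSMUSG00000053519) spans chromosome 11 from 33629339 to 33993152. Kcnip2 (ENSMUSG00000025221), on chromosome 19 from 45791839 to 45816061, is the shortest, at 24.2 kb. Kcnip3 (ENSMUSG00000079056), whose product is also known as DREAM or calsenilin, spans chromosome 2 from 127456498 to 127522094. Kcnip4 (ENSMUSG00000029088), on chromosome 5 from 48389502 to 49524907, is the longest, at 1135 kb. Dpp6 (ENSMUSG00000061576) spans chromosome 5 from 26817203 to 27727505 and Dpp10 (ENSMUSG00000036815) spans chromosome 1 from 123321471 to 124045559. Levels of different genes are therefore compared per kb of gene body. A gene's share of its family's UMIs carries the lengths of the genes, so it is compared between classes, where the lengths are the same, and not read as a ratio of transcripts. Of the members, 2 overlap another gene on the same strand: Gm43847, within Kcnd3, had UMIs equal to 3.93% of those of Kcnd3, and 4930469K13Rik, within Kcnip1, 2.41%. Kcnd3, Kcnip1, Kcnip4 and Dpp6 also overlap genes on the opposite strand, and the sources used here do not state whether counting used strand.

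The heterozygote library held 62702888 UMIs in 7801 barcodes and the wild-type library 58701532 in 6512, with 13 barcode sequences in common. Barcodes with under 500 genes or over 5% mitochondrial UMIs made up 7.56% of the barcodes of the first and 1.35% of those of the second. After doublet removal 6795 and 6094 nuclei were analysed, with medians of 5770 and 6658.5 UMIs. Capza2 was at 67.5 CPM in the heterozygote and 86.0 CPM in the wild-type library, a log2 ratio of -0.35 (95% interval -0.41 to -0.29). Clusters were called like a cell type from its markers, and "-like" is left off below. Dentate granule, CA1 pyramidal, CA3 pyramidal, inhibitory, astrocyte, oligodendrocyte and microglia nuclei were named, as were 2 clusters of subicular, entorhinal or cortical type (cluster 16, with Tshz2 among its leading genes, and cluster 17, with Foxp2). Dpp10 itself leads cluster 17, and it is among the leading genes of cluster 12. Excitatory clusters 10, 12, 13 and 18 had no regional name and are given by number. All intervals below are exact, at 95%, and cover counting error only.

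Kcnd2 had its highest levels in CA1 and dentate granule nuclei. CA1 pyramidal nuclei were at 5674 CPM in the heterozygote and 5301 CPM in the wild-type library, followed by dentate granule nuclei at 4868 and 4925 CPM. Oligodendrocyte precursors, glial progenitors that carry voltage-gated channels, were next at 4339 and 4205 CPM. Inhibitory nuclei had 1785 and 1665 CPM, astrocytes 755 and 896 CPM. Microglia, which are not known for A-type current, had 177 and 188 CPM, and oligodendrocytes 141 and 106 CPM. For 4 of the 12 neighbouring pairs in the order over 13 classes the ranges of the 2 libraries overlapped.

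Kcnd2 also differed inside the CA1 class. Cluster 2, the larger, had 6666 and 6731 CPM, while cluster 6 had 4058 and 3616 CPM. Neither library's value for cluster 6 came near those of cluster 2. In the subicular, entorhinal or cortical class, cluster 16 had 5445 and 5543 CPM and cluster 17 had 1894 and 1722 CPM, so the 2 clusters of that class lay further apart than the CA1 clusters.

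Kcnd3 was distributed differently. Dentate granule nuclei had 296 CPM in the heterozygote and 306 CPM in the wild-type library, and inhibitory nuclei 296 and 276 CPM, the 2 highest classes. CA1 nuclei had 101 and 131 CPM, of which cluster 2 had 34.1 and 34.1 CPM and cluster 6 had 210 and 244 CPM. Cluster 2, the group of nuclei with the most Kcnd2, was thus the neuronal group with the least Kcnd3 among the clusters named here. Microglia had 14.2 and 16.3 CPM, and oligodendrocytes 13.9 and 11.4 CPM. Per kb of gene body, Kcnd2 in CA1 nuclei was at 11.03 and 10.31 CPM and Kcnd3 at 0.456 and 0.589 CPM. In inhibitory nuclei the same scale gave 3.47 and 3.24 CPM for Kcnd2 against 1.34 and 1.24 CPM for Kcnd3.

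The share of Kcnd3 in the UMIs of Kcnd2 plus Kcnd3, called Kv4 UMIs here, states this pore makeup within each class. Kcnd1, listed with the other A-type channel genes, is not included. It had 3.44 and 4.92 CPM in CA1 and 3.01 and 4.92 CPM in inhibitory nuclei. The Kcnd3 share was 1.75% (1.65 to 1.86%) in heterozygote and 2.40% (2.28 to 2.53%) in wild-type CA1 nuclei. This share was 14.2% (13.5 to 14.9%) in inhibitory nuclei of both libraries, so that inhibitory nuclei exceeded CA1 nuclei by 12.5 and 11.8 percentage points. A single heterozygote inhibitory nucleus held 1670 Kv4 UMIs, 17.28% of the class, and without the nucleus of each library with the most Kv4 UMIs the inhibitory shares were 15.98 and 14.44%. Dentate granule nuclei had 5.74 and 5.86%, and CA3 nuclei 8.19 and 7.54%. Among the inhibitory clusters, cluster 19, with Vip and Adarb2 among its leading genes, had the highest share, 19.7% and 21.6%. Cluster 21, named neurogliaform by its markers, had 17.3 and 17.3%, and cluster 9, which contains the Sst nuclei, 11.8 and 10.7%. The order of the 3 inhibitory clusters was the same in both libraries.

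The pore genes were usually found together in 1 nucleus. Among nuclei with at least 10 Kv4 UMIs, both genes were detected in 81.8% of heterozygote and 79.4% of wild-type dentate granule nuclei, and in 92.8 and 83.4% of CA3 nuclei. In CA1 cluster 2 both were detected in 22.9 and 24%. Nuclei with more Kcnd3 than Kcnd2 UMIs were concentrated in the inhibitory class: 14 of 189 heterozygote and 17 of 258 wild-type inhibitory nuclei had more than 50% Kcnd3, and cluster 19 held 7 and 14 of these. Over all nuclei the counts were 15 of 4235 and 23 of 4157, so 1 heterozygote nucleus and 6 wild-type nuclei of this kind were in other classes.

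**Figure D1:**
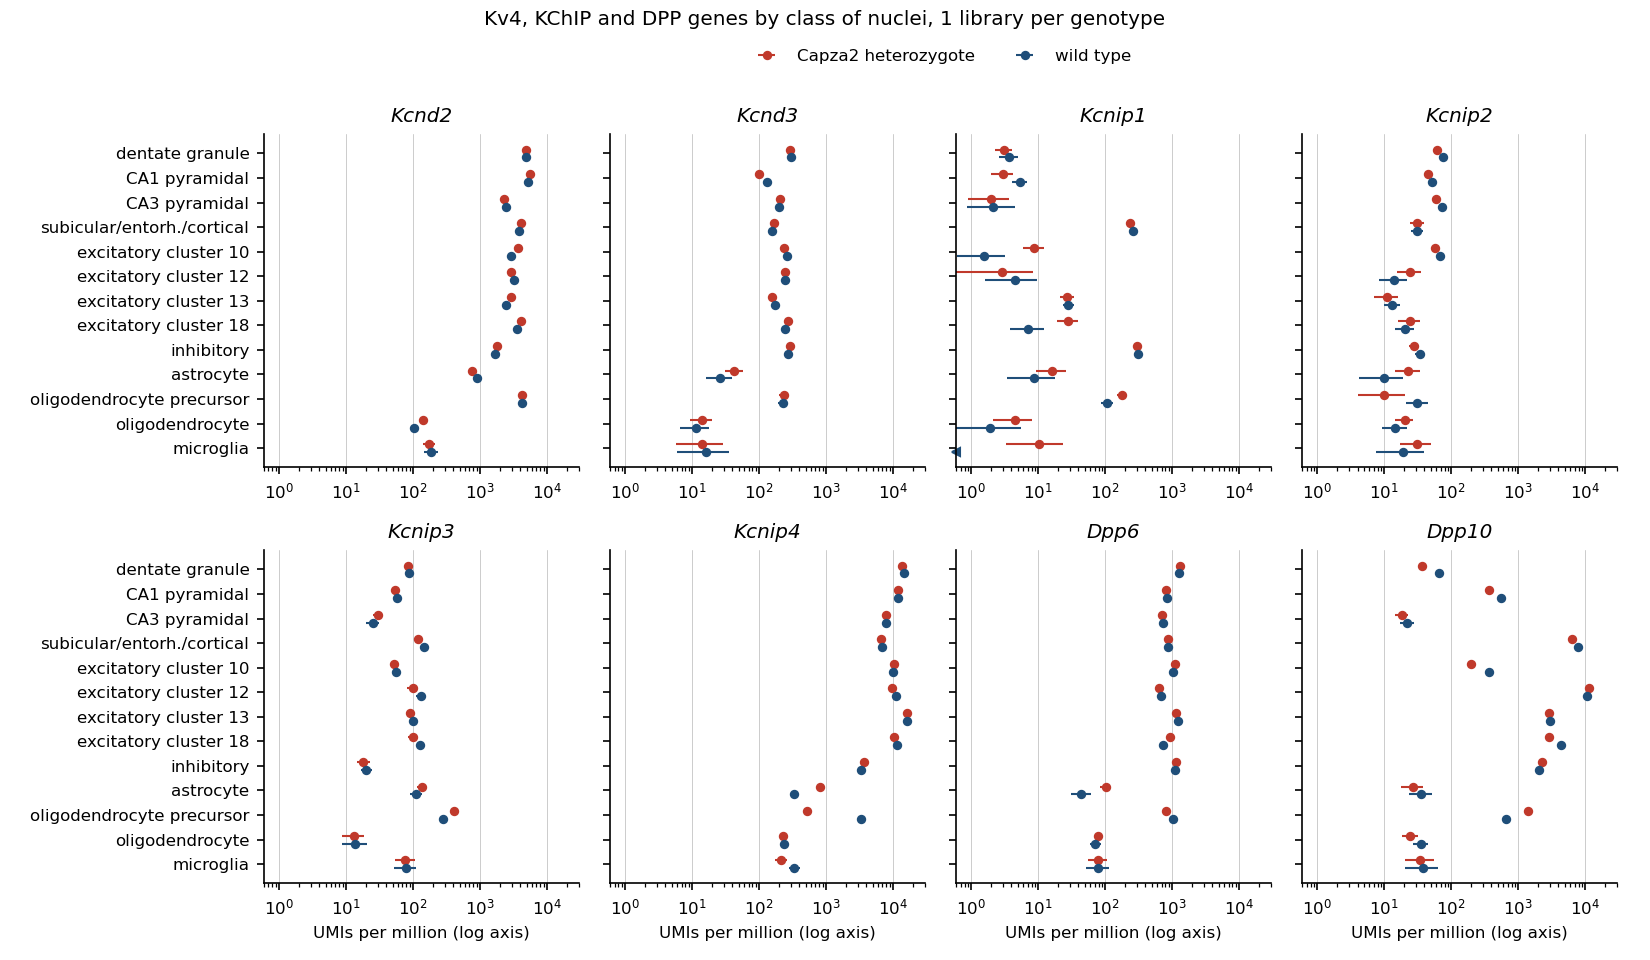
Level of each gene (CPM, log axis) in 13 classes or clusters of nuclei, in the Capza2 heterozygote library (red) and the wild-type library (blue). Points are sums over all nuclei of a class, bars are exact 95% Poisson intervals (counting error only), and a triangle at the left edge marks 0 UMIs. Dpp10 lies at 18.4 CPM in CA3 nuclei, under the microglia, and at 11623 CPM in cluster 12 of the heterozygote library.

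Kcnip4 held nearly all KChIP UMIs of dentate granule, CA1 and CA3 nuclei. Its level was 16446 CPM in the heterozygote and 16261 CPM in the wild-type library in cluster 13, 13847 and 14530 CPM in dentate granule nuclei, and 12103 and 11938 CPM in CA1 nuclei. CA3 nuclei had 7846 and 7991 CPM and inhibitory nuclei 3735 and 3346 CPM. Its share of KChIP UMIs was 98.9 and 98.9% in dentate granule, 99.2 and 99.0% in CA1 and 98.9 and 98.8% in CA3 nuclei. In inhibitory nuclei that share was 91.6% (91.2 to 92.0%) and 90.2% (89.8 to 90.6%), and the excitatory cluster 17 had a like share, 90.7 and 89.7%. The length of Kcnip4 enters these shares but is the same in each class. The inhibitory share is that of the summed UMIs, and Kcnip4 was unevenly spread over inhibitory nuclei. The median inhibitory nucleus held 2 Kcnip4 and 2 Kcnip1 UMIs in each library. No Kcnip4 UMI was found in 25.7% of heterozygote and 29.6% of wild-type inhibitory nuclei, while 26.6 and 21.7% carried at least 50.

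Per kb of gene body the KChIP genes were closer. In dentate granule nuclei Kcnip4 was at 12.2 CPM in the heterozygote and 12.8 CPM in the wild-type library, Kcnip2 at 2.52 and 3.08 CPM, Kcnip3 at 1.29 and 1.32 CPM, and Kcnip1 at 0.00846 and 0.0100 CPM. In inhibitory nuclei the order by this measure was Kcnip4 at 3.29 and 2.95 CPM, Kcnip2 at 1.15 and 1.39 CPM, Kcnip1 at 0.820 and 0.852 CPM, and Kcnip3 at 0.279 and 0.309 CPM. Oligodendrocyte precursors departed from both classes: Kcnip3 was their highest KChIP gene per kb, at 6.35 and 4.31 CPM, against 0.465 and 2.97 CPM for Kcnip4. These orders depend on dividing by gene body. Undivided, Kcnip4 was above Kcnip3 in the precursors, at 528 and 3372 against 416 and 283 CPM. In dentate granule nuclei Kcnip3 was then above Kcnip2, at 84.5 and 86.4 against 61.1 and 74.7 CPM. Some values were near or under those of microglia, which are used as background for other members. Microglia had 30.52 and 19.03 CPM of Kcnip2, from 15 and 7 UMIs, and 77.3 and 78.8 CPM of Kcnip3. In inhibitory nuclei Kcnip2 was close to these, at 27.8 and 33.7 CPM, and Kcnip3 was under them. Neither place in the inhibitory order is read as expression, nor that of Kcnip3 in dentate granule nuclei. Kcnip1 in inhibitory nuclei was well above microglia, at 298 and 310 against 10.2 and 0 CPM. The exons of Kcnip2, Kcnip3 and Kcnip4 have similar total lengths, 3.48, 3.55 and 3.63 kb.

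Cluster 17 was the excitatory group with the lowest Kcnip4, at 1923 CPM in the heterozygote and 2205 CPM in the wild-type library. The gene was unevenly spread there. No Kcnip4 UMI was found in 42.1% of heterozygote and 44.9% of wild-type nuclei of the cluster, while 8.42 and 11.6% carried at least 50. In CA1 cluster 2, by contrast, 100% and 99.5% of nuclei carried at least 10.

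Kcnip1, the KChIP gene known from interneurons, had its highest level of the 13 classes in inhibitory nuclei, at 298 and 310 CPM. Cluster 19 had 592 and 563 CPM, cluster 21 had 313 and 301 CPM and cluster 9 had 186 and 212 CPM. The excitatory cluster 16 matched these, at 363 and 439 CPM, with Kcnip1 detected in 91.9 and 90.9% of its nuclei. Dentate granule nuclei had 3.08 and 3.64 CPM, CA1 nuclei 2.95 and 5.37 CPM, and CA3 nuclei 1.97 and 2.16 CPM. In wild-type microglia 0 UMIs were found. Of all KChIP UMIs, Kcnip1 made up 7.31% (6.95 to 7.69%) and 8.35% (7.97 to 8.75%) in inhibitory nuclei and 0.0242 and 0.0445% in CA1 nuclei, a difference of 7.29 and 8.31 percentage points. A single heterozygote inhibitory nucleus held 3289 KChIP UMIs, 17.36% of the class. Without the nucleus of each library with the most KChIP UMIs the inhibitory shares were 8.73 and 8.60%.

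Kcnip2 encodes a KChIP best known from heart and from principal neurons. It was low throughout: 61.1 CPM in the heterozygote and 74.7 CPM in the wild-type library in dentate granule nuclei, 58.6 and 71.9 CPM in CA3, 45.0 and 52.1 CPM in CA1 and 27.8 and 33.7 CPM in inhibitory nuclei. For 10 of its 12 neighbouring pairs of classes the libraries' ranges overlapped, the most of any member. After thinning each nucleus to 1000 UMIs, Kcnip2 was detected in 6.55 and 6.61% of dentate granule nuclei and in 3.70 and 2.31% of microglia. Its unthinned level in microglia was 30.52 and 19.03 CPM, so no expression is read from the inhibitory values.

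Kcnip3 encodes a calcium sensor that also acts as a transcriptional repressor. Oligodendrocyte precursors were highest, at 416 CPM in the heterozygote and 283 CPM in the wild-type library, detected in 66.7 and 59.4% of nuclei at median depths of 3334 and 3312 UMIs. Cluster 17 had 155 and 205 CPM, astrocytes 137 and 112 CPM, and dentate granule nuclei 84.5 and 86.4 CPM. Inhibitory nuclei, at 18.3 and 20.3 CPM, had less than any other neuronal class compared. Microglia, the measure of free RNA used below, had 77.3 and 78.8 CPM, from 38 and 29 UMIs. Dentate granule nuclei were close to this level. CA1 nuclei (54.7 and 58.9 CPM), CA3 nuclei (30.4 and 25.3 CPM), cluster 10 and inhibitory nuclei were under it. No Kcnip3 expression is read from these groups, nor a ranking among them. In cluster 17 Kcnip3 made up 7.31 and 8.32% of KChIP UMIs, against 0.604 and 0.588% in dentate granule nuclei.

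**Figure D2:**
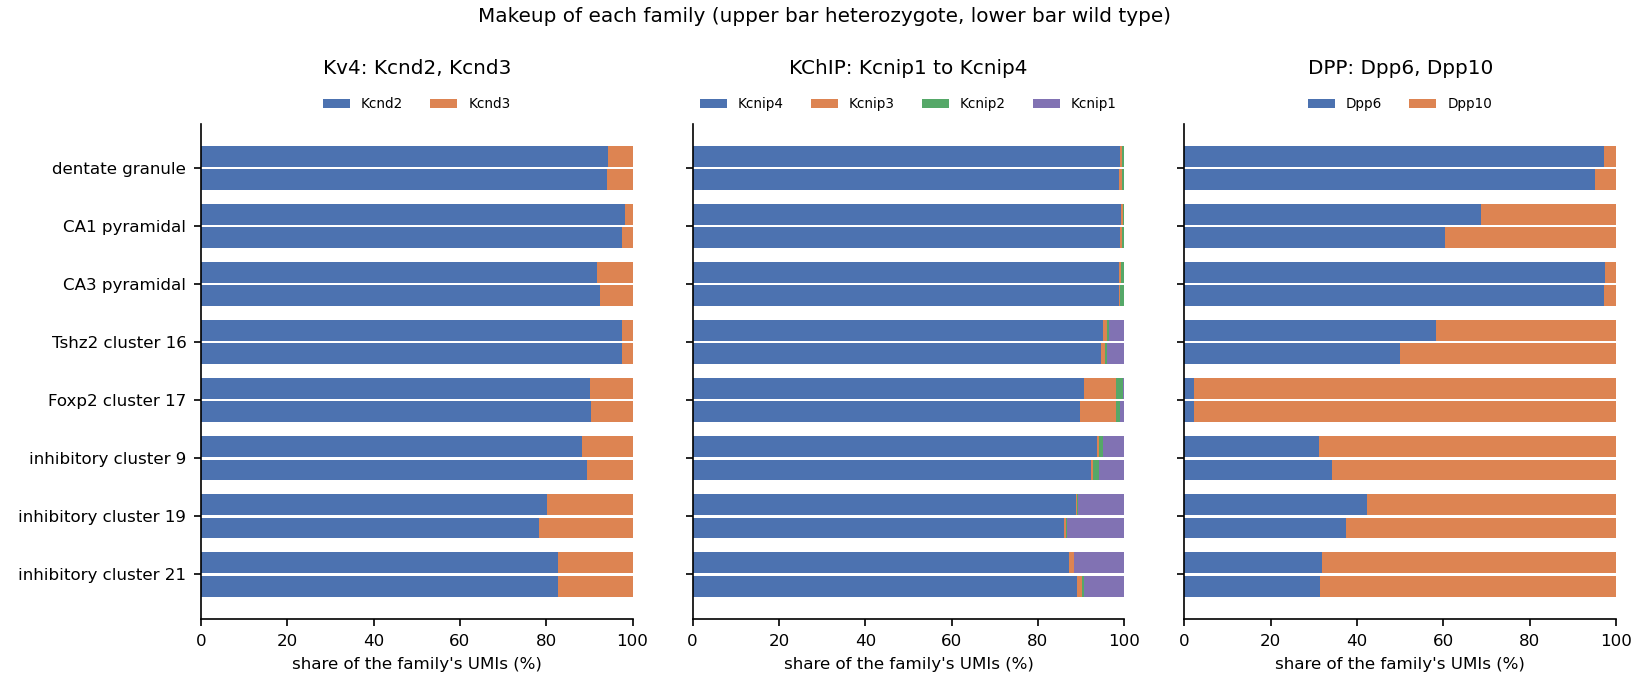
Share of each family's UMIs (%) held by its members in 8 groups of nuclei, for Kcnd2 and Kcnd3 (left), the KChIP genes (middle) and the DPP genes (right). The upper bar of each pair is the heterozygote and the lower the wild-type library. Kcnd2 and Kcnip4 fill most of every bar of the first 2 families, while the share of Dpp10 runs from 2.49% in CA3 nuclei to 97.7% in cluster 17 of the heterozygote library.

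Dpp6 was at 1310 CPM in the heterozygote and 1262 CPM in the wild-type library in dentate granule nuclei, 1137 and 1094 CPM in inhibitory nuclei, 801 and 836 CPM in CA1 and 718 and 740 CPM in CA3. Cluster 17 was lower than these classes, at 369.7 and 382 CPM. Oligodendrocyte precursors had 826 and 1043 CPM. Astrocytes had 103 and 44.3 CPM and microglia 79.3 and 78.8 CPM.

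Dpp10 was high in some classes of neurons and near or under the level of microglia in others. It was at 11623 CPM in the heterozygote and 10640 CPM in the wild-type library in cluster 12, and at 15738 and 17041 CPM in cluster 17. Inhibitory nuclei had 2259 and 2063 CPM. Dentate granule nuclei had 36.9 and 65.6 CPM and CA3 nuclei 18.4 and 21.9 CPM. The granule cells and the CA3 cells that their mossy fibres contact thus had Dpp6 and little Dpp10. After thinning to 1000 UMIs, Dpp10 was detected in 2.79 and 4.77% of dentate granule nuclei, 1.67 and 0.469% of CA3 nuclei and 3.03 and 3.70% of microglia, whose unthinned median depth was 1457 and 1462 UMIs against 6556 and 6303.5 UMIs in dentate granule nuclei. Microglia are used here as the measure of free RNA, and since the shares in dentate granule and CA3 nuclei were close to or under theirs, no expression is read from them.

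CA1 nuclei divided over Dpp10. Cluster 2 had 40.8 CPM in the heterozygote and 18.5 CPM in the wild-type library, and cluster 6 had 892 and 1178 CPM. Even within cluster 6 the gene was carried by part of the nuclei: 60.2 and 47.4% had no Dpp10 UMI, while 20.4 and 25.7% had at least 10 and 9.29 and 8.67% had at least 50. One nucleus held 18.8% of the heterozygote and another 13% of the wild-type Dpp10 UMIs of this cluster.

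The share of Dpp10 in DPP UMIs was 66.5% (65.8 to 67.3%) in heterozygote and 65.3% (64.6 to 66.1%) in wild-type inhibitory nuclei. In CA1 nuclei it was 31.3% (30.4 to 32.1%) and 39.7% (38.9 to 40.5%), so that inhibitory nuclei were 35.2 and 25.6 percentage points higher. The gap depended on which CA1 cluster was used: it was 63.4 and 63.2 points between the largest clusters of the 2 classes, clusters 9 and 2. Cluster 6 had 49.1 and 55.1% Dpp10, cluster 2 had 5.33 and 2.47%. Per kb of gene body, inhibitory nuclei had 3.12 and 2.85 CPM of Dpp10 against 1.25 and 1.20 CPM of Dpp6. The neuronal groups differed widely in this share. Dentate granule, CA3 and CA1 cluster 2 nuclei had the lowest values, at most 5.33%, and cluster 10 had 15.5 and 25.8%. Cluster 16 had 41.6 and 50.0%, cluster 13 had 71.1 and 70.8% and cluster 18 had 75.8 and 85.4%. Clusters 12 and 17 had the highest, 93.9 to 97.8%.

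As a class, oligodendrocyte precursors held transcripts of pore, KChIP and DPP genes, though whether in the same nuclei was not tested. Beside Kcnd2, Kcnip3 and Dpp6, given above, they had 237 and 225 CPM of Kcnd3, 181 and 109 CPM of Kcnip1, and 1416 and 662 CPM of Dpp10, which was detected in 91.9 and 86.3% of their nuclei. Oligodendrocytes, the cells these progenitors give rise to, had 24.7 and 35.3 CPM of Dpp10 and 78.6 and 71.95 CPM of Dpp6. These oligodendrocyte values were under those of microglia, 34.6 and 38.1 CPM of Dpp10 and 79.3 and 78.8 CPM of Dpp6. No expression is read from them. Astrocytes had Kcnd2 but little of either DPP gene. Their Kcnip3, at 137 and 112 CPM, was not far above the 77.3 and 78.8 CPM of microglia.

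Between the libraries, a gene in a class was compared where it had at least 200 UMIs over both libraries and the class at least 200 nuclei in each, and a difference of at least 1.5-fold was counted. Of 64 pairs of member and class, 41 met the minimum, and 4 of these (9.76%) were past 1.5-fold, 1 higher and 3 lower in the heterozygote library. Over all genes, 439 of 41297 such pairs (1.06%) were past it. The members' median log2 ratio (heterozygote over wild type) was -0.03. The 4 pairs were Dpp10 in CA1 and in dentate granule nuclei and Kcnip4 in astrocytes and in microglia. As given below, Dpp10 in dentate granule nuclei and Kcnip4 in microglia were near background. Dpp10 in CA1 nuclei and Kcnip4 in astrocytes changed sign under some settings. The other 37 pairs stayed within 1.5-fold, among them all pairs of Kcnd2, Kcnd3, Kcnip1, Kcnip2, Kcnip3 and Dpp6.

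By class, 1 of 7 members over the minimum was past the fold in CA1 nuclei, where 1.24% of all genes were, and 1 of 7 in dentate granule nuclei, against 0.757%. None of 6 was in CA3 nuclei (0.836% of all genes), none of 7 in inhibitory nuclei (0.999%) and none of 7 in the subicular, entorhinal or cortical class (1.23%). In astrocytes it was 1 of 3 (2.52% of all genes), in microglia 1 of 1 (1.84%) and in oligodendrocytes 0 of 3 (0.854%).

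**Figure D3:**
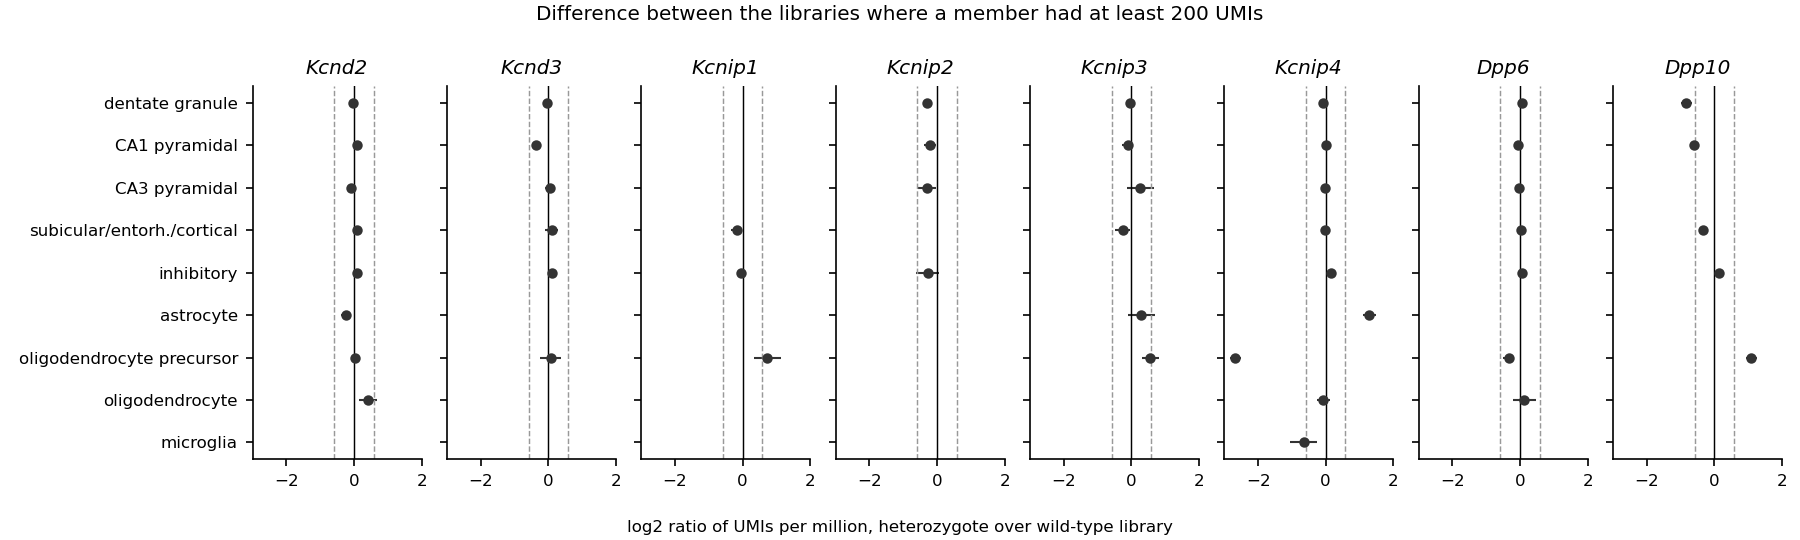
Log2 of the CPM in the heterozygote over that in the wild-type library, for each gene in the classes where it had at least 200 UMIs over both libraries. Points are single ratios, bars exact 95% intervals (counting error only), and dashed lines mark 1.5-fold. Most points lie near 0, and the points outside the dashed lines belong to Kcnip4 and Dpp10, with Kcnip1 in oligodendrocyte precursors at 0.73.

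Dpp10 in CA1 nuclei was at 364 CPM in the heterozygote and 551 CPM in the wild-type library, a log2 ratio of -0.60 (-0.66 to -0.54). The 2 clusters of the class were unequally represented, since the Dpp10-bearing cluster 6 made up 28.4% of heterozygote and 37.8% of wild-type CA1 nuclei. Within cluster 6 the log2 ratio was -0.40 (-0.46 to -0.34), or -0.50 without the nucleus of each library highest in Dpp10. Within cluster 2 it was 1.14 (0.81 to 1.47), where 0.678% of all genes were past 1.5-fold. There 1 heterozygote nucleus with 178 UMIs held 69.3% of the library's Dpp10 UMIs, and without the highest nucleus of each library the ratio was 0.08 (-0.40 to 0.56). The direction for the class as a whole turned at a finer clustering (Leiden resolution 2), to 0.47.

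Dpp10 in dentate granule nuclei, close to background, was at 36.9 CPM in the heterozygote and 65.6 CPM in the wild-type library, a log2 ratio of -0.83 (-0.99 to -0.67), and 14.8% of heterozygote against 21.4% of wild-type nuclei carried a UMI. Over all nuclei the Dpp10 ratio was -0.59 (-0.60 to -0.57), but groups rich in Dpp10 were a smaller part of the heterozygote library: cluster 17 made up 1.40% of its nuclei against 2.41% in the wild type, cluster 12 made up 2.05 against 3.22% and inhibitory nuclei 4.75 against 7.25%. Within groups the ratio was below 0 in clusters 10 (-0.86, with 2.45% of all genes past 1.5-fold), 16 (-0.54), 18 (-0.57) and 17 (-0.11), close to 0 in cluster 13 (-0.06), and above 0 in inhibitory nuclei (0.13) and cluster 12 (0.13). Cluster 17, with the highest level of the gene, differed by 1.08-fold.

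Kcnip4 in astrocytes was at 820 CPM in the heterozygote and 334 CPM in the wild-type library, a log2 ratio of 1.29 (1.096 to 1.497). The share of astrocytes with at least 1 UMI ran the other way, 33.9% against 50.4%, at median depths of 2610 and 2615.5 UMIs. Of the heterozygote astrocytes, 3 of 345 had at least 100 Kcnip4 UMIs, and 1 of them, with 281, held 32.6% of the class total. No wild-type astrocyte had 30 or more. Without the highest nucleus of each library the ratio was 0.84, and with every nucleus given equal weight it was -0.40. Markers of CA1 pyramidal cells summed to 334 and 210 CPM in these astrocytes (5 of 6 higher in the heterozygote library) general excitatory markers to 311 and 245 CPM (4 of 6 higher) and markers of dentate granule cells to 721 and 633 CPM (5 of 7 higher). No marker of these lists was at 0 in either library. The part of these markers in the Kcnip4 difference was not tested.

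Microglia had 216 and 340 CPM of Kcnip4, a log2 ratio of -0.66 (-1.04 to -0.27), and 28.6 and 40.3% of nuclei with a UMI, none with more than 3. This level is read as background. Oligodendrocytes, at 230 and 241 CPM with 31.9 and 36.5% of nuclei, had a similar level with a log2 ratio of -0.07 (-0.26 to 0.13).

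Oligodendrocyte precursors had 198 and 197 nuclei, just under the minimum, and were added after their values were seen. In this class 12.1% of all genes past the UMI minimum were past 1.5-fold, more than in any class above, and 3 of 7 members were. Kcnip4 was at 528 CPM in the heterozygote and 3372 CPM in the wild-type library, a log2 ratio of -2.67 (-2.83 to -2.52). That difference lay in a minority of nuclei: 26 of 197 wild-type and 4 of 198 heterozygote nuclei had at least 10 Kcnip4 UMIs, and the median nucleus had 1 and 0. Markers of dentate granule cells summed to 527 CPM in the heterozygote and 1210 CPM in the wild-type precursors (1 of 7 higher in the heterozygote, none at 0), and the class's own 6 markers to 9155 and 7259 CPM. With doublets kept, or at resolution 2, the Kcnip4 ratio was 0.21 and 0.19. The part of the granule cell markers was not tested.

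Dpp10 in the precursors had a log2 ratio of 1.10 (0.95 to 1.25), with a median of 3 UMIs per heterozygote and 2 per wild-type nucleus. Without the highest nucleus of each library it was 0.90, and over the alternatives it ran from 0.28 to 1.19. Kcnip1 had a ratio of 0.73 (0.34 to 1.13), which fell inside 1.5-fold with doublets kept (0.27), at resolution 2 (0.28), with the automatic doublet threshold (0.56) and when thinned (0.22). Kcnip3 had a ratio of 0.56 (0.31 to 0.81). Kcnd2, the pore gene, was nearly level in this class, at 0.05 (-0.02 to 0.11).

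**Figure D4:**
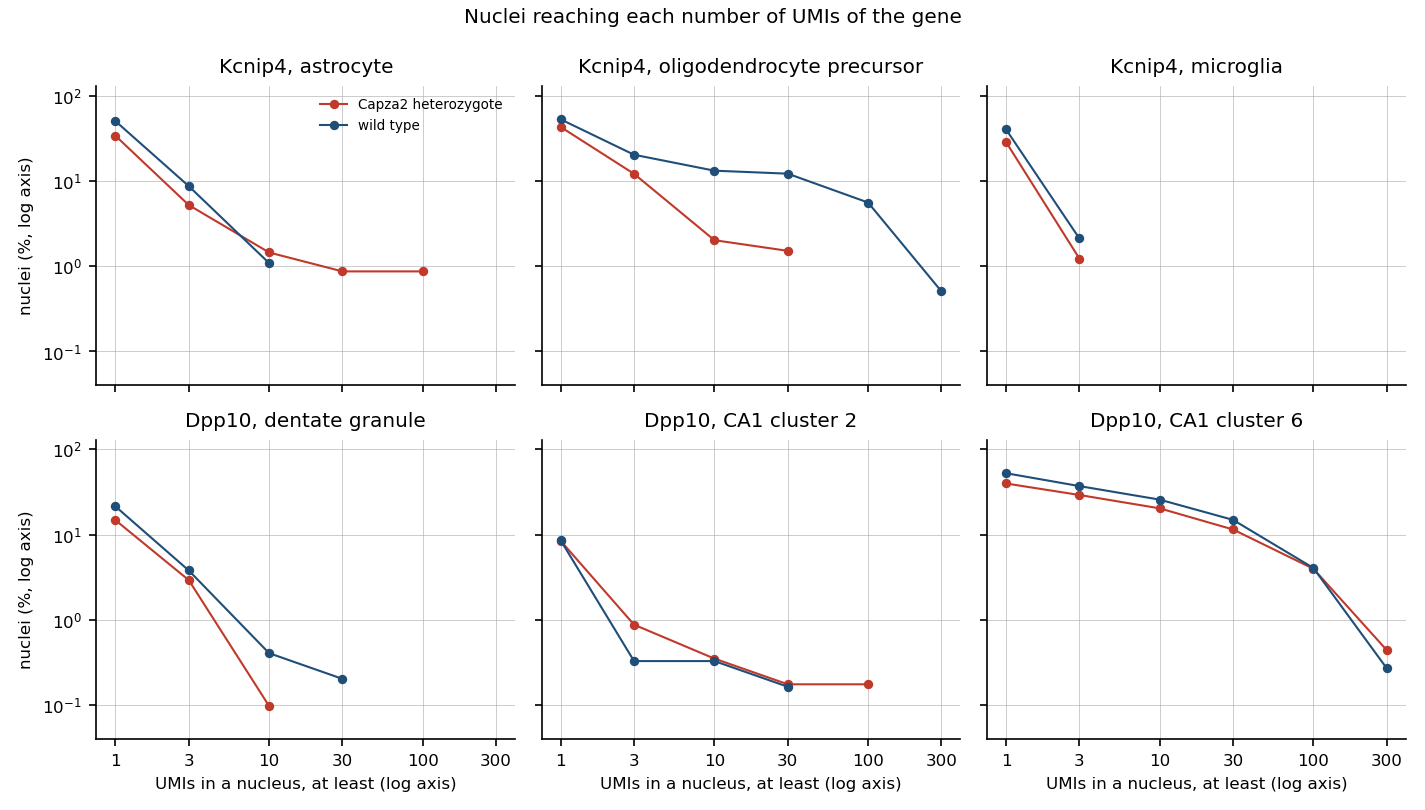
Share of nuclei (%, log axis) that carried at least the given number of UMIs (log axis) of Kcnip4 (upper row) or Dpp10 (lower row), in the heterozygote (red) and wild-type (blue) library. Lines end where no nucleus reached the next step. In astrocytes the wild-type line starts higher, at 50.4%, and the heterozygote line extends further, to 3 nuclei with at least 100 UMIs, while wild-type oligodendrocyte precursors include 24 nuclei with at least 30.

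Beside Dpp10, the members that met the minimum in dentate granule and CA1 nuclei lay within 1.5-fold. In dentate granule nuclei the log2 ratio was -0.02 (-0.03 to -0.00) for Kcnd2, -0.05 (-0.11 to 0.02) for Kcnd3, -0.07 (-0.08 to -0.06) for Kcnip4 and 0.05 (0.02 to 0.09) for Dpp6. In CA1 nuclei it was 0.10 for Kcnd2, 0.02 for Kcnip4 and -0.06 for Dpp6. Kcnd3 in CA1 nuclei had a log2 ratio of -0.37 (-0.485 to -0.25), and within clusters 2 and 6 the ratios were 0.00 and -0.22. Kcnip2 was lower in the heterozygote library in all 4 classes where it was compared, at -0.29 in dentate granule, -0.21 in CA1, -0.30 in CA3 and -0.28 in inhibitory nuclei, with the interval of the inhibitory value reaching 0.06. After thinning to 1000 UMIs the sign turned in CA1 (0.07) and in inhibitory nuclei (0.97), and the dentate granule ratio was -0.01. In inhibitory nuclei the 7 compared members ran from -0.28 to 0.16. The highest of these, Kcnip4, rested in part on 1 heterozygote nucleus with 3236 UMIs, 18.65% of the library's Kcnip4 UMIs in the class, and without the highest nucleus of each library its levels were 3270 and 3269 CPM. Kcnd2, at 0.10 in this class, was likewise at -0.08 without its highest nucleus of each library, the heterozygote one holding 1573 UMIs, 18.97% of the total.

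A further 4 lists of genes were set beside the complex. Of 9 other A-type channel genes, 7 met the minimum in some class, and 0 of 31 pairs were past 1.5-fold (median log2 ratio 0.04). The largest median differences were those of Kcna4 (0.45 over 3 classes), which encodes the inactivating Kv1.4 pore, and of Kcnab2 (-0.23) and Kcna2 (0.16), a beta subunit and a pore of Kv1 channels. Of 6 relatives of the KChIPs, 0 of 28 pairs were past the fold (median -0.02), and those named by rule are the calcium sensors Hpcal4 (-0.21), Hpca, hippocalcin (0.18), and Hpcal1 (-0.17). Of 5 relatives of the DPP genes, 2 were measured, the cytosolic peptidases Dpp9 (0.13) and Dpp8 (0.06), with 0 of 8 pairs past the fold (median 0.09). Of 14 reported partners and regulators, 0 of 38 pairs were past it (median 0.00). Among these the largest medians were those of the T-type calcium channel Cacna1g (-0.34), the anchoring protein Akap5 (0.29) and the scaffold Dlg4, or PSD-95 (-0.16).

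Across 13 classes in 2 libraries (26 points, which share library, depth and class makeup), the members' log2 levels differed in how closely they ran together. Pearson's r was 0.94 for Kcnd3 with Dpp6, 0.90 for Kcnd2 with Kcnd3 and 0.88 for Kcnip4 with Dpp6. Kcnip2 with Dpp10 gave -0.29 and Kcnip1 with Kcnip4 gave 0.04. Among 9012 genes with at least 1000 UMIs, the most similar to Kcnip4 were Slit3 (0.98), Scn8a (0.97) and Fam135b (0.97), and to Dpp10 Sgcz (0.97), Hs6st2 (0.91) and Ank1 (0.91). For Kcnip1 they were Alk (0.87), Cacna2d2 (0.85) and Nxph1 (0.84). Kcnd2 was most like Csmd1 (0.96), Gucy1a2 (0.96) and Fgf14 (0.96), Kcnd3 like Csmd1 (0.96), Sorbs2 (0.95) and Sntg1 (0.95), and Dpp6 like Fam155a (0.98), Gria3 (0.97) and Ica1 (0.97). For Kcnip2 and Kcnip3 no gene reached 0.85. The genes nearest to Kcnip2 were Wipf3 (0.84), Anxa11 (0.84) and Lurap1l (0.83), and nearest to Kcnip3 were Tnpo1 (0.81), Ranbp9 (0.81) and Hs2st1 (0.80).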

How the data were processed

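The authors deposited raw UMI counts per gene and barcode, made with Cell Ranger 7.1.0 on mm10 per the submitters' processing notes, from droplet 3' v3 libraries of isolated nuclei per the labels' protocols. Every deposited barcode held at least 500 UMIs. From these counts, barcodes with at least 500 genes and at most 5% mitochondrial UMIs were kept. The highest Scrublet doublet scores were removed at an expected 0.8% per 1000 barcodes (416 heterozygote, 330 wild-type), because the automatic threshold marked 0.0139% and 8.05%. Clustering with scanpy 1.11.5 and leidenalg 0.10.2 used 2000 variable genes without the members and listed genes, 30 components, 15 neighbours and resolution 1. Clusters were named from marker lists. The naming details, and the setting apart of 4 clusters with doublet scores at least 2 times the mean and high depth, were chosen after the data were seen. UMIs were summed per class. Ratios carry exact conditional binomial intervals, shares Clopper-Pearson intervals and levels Poisson intervals. No test between genotypes is possible. The members are always given, up to 3 genes of each list were named by the largest median ratio, and up to 3 per member by correlation. The members and lists were chosen with earlier results of these data known. Of 32285 gene identifiers, 32235 matched GENCODE M21. RefSeq promoters were found for all 8 members. The interval code was checked on simulated counts.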

Additional observations from a re-analysis of the deposited data

Results flagged for a closer look

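Kcnip4 had opposite differences between the libraries in 2 glial classes. It was higher in heterozygote astrocytes (log2 ratio 1.29) and lower in heterozygote oligodendrocyte precursors (-2.67), 3.97 apart on the log2 scale. Both rest on few nuclei with many UMIs, as given above. Dpp10 was higher in heterozygote oligodendrocyte precursors (1.10) and lower in heterozygote dentate granule nuclei (-0.83), 1.93 apart. Among single clusters, Dpp10 was higher in CA1 cluster 2 (1.14) and lower in excitatory cluster 10 (-0.86), 2 apart on the log2 scale, and without the highest nucleus of each library the ratios were 0.08 and -0.71. None of these differences between classes was tested, since each rests on 1 library per genotype.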

How the results depend on the processing

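No paired analysis was possible because each genotype had 1 library. The count of member and class pairs past 1.5-fold (4 of 41) was 2 of 26 after thinning to 1000 UMIs (0.917% over all genes), 7 of 55 with a minimum of 50 UMIs (5.42%), 1 of 41 at 2-fold (0.177%) and 8 of 67 with a minimum of 100 nuclei per class (1.53%), an alternative added after seeing the data. The other settings gave 3 or 4. The differences in share between inhibitory and CA1 nuclei kept their sign under every setting tried, and changed in size as follows, in percentage points for the heterozygote and then the wild-type library. The Kcnd3 share (12.5 and 11.8) was 15.5 and 15.2 when thinned, 15.7 and 14.4 with nuclei weighted alike, 11.3 and 10.2 in the largest clusters, and 14.0 and 13.2 with Scrublet's automatic threshold. It was 14.3 in the heterozygote with at least 1000 genes and 14.25 without the nucleus highest in the gene family (added later), and in the wild type 10.2 with doublets kept and 12.5 at resolution 2. The Dpp10 share (35.2 and 25.6) was 47.0 and 32.0 when thinned, 46.8 and 32.6 with nuclei weighted alike, 63.4 and 63.2 in the largest clusters, 36.5 and 27.6 with the automatic threshold, 36.9 and 27.2 with doublets kept, 37.4 and 42.5 at resolution 2, 47.5 and 37.8 without the tenth of nuclei highest in other classes' markers (added later), 40.4 and 28.1 without the nucleus highest in the family, and 23.7 in the wild type with at least 1000 genes. The Kcnip1 share (7.29 and 8.31) was 8.09 and 8.75 when thinned, 8.73 and 9.39 with nuclei weighted alike, 4.91 and 5.83 in the largest clusters, 8.73 and 10.4 with the automatic threshold, 6.91 and 6.76 with doublets kept, and in the heterozygote 8.61 with at least 1000 genes and 8.70 without the nucleus highest in the family.

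Log2 ratios past 1.5-fold changed sign in these cases: Dpp10 in CA1 nuclei at resolution 2 (0.47) and in the largest cluster (1.14), Kcnip4 in astrocytes when thinned (-0.43) and with nuclei weighted alike (-0.40), and Kcnip4 in oligodendrocyte precursors with doublets kept (0.21) and at resolution 2 (0.19). The cause was not tested. Dpp10 in dentate granule nuclei (-0.98 to -0.56) and Kcnip4 in microglia (-0.99 to -0.60) kept their sign in all 12 settings. Low UMI counts limit Kcnip1 in dentate granule, CA1 and CA3 nuclei, Kcnip2 in glia and in thinned inhibitory nuclei, and Kcnip3 in oligodendrocytes and microglia.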
